A study of Mus musculus with 24 samples.

Results

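6 secreted or membrane defence proteins were followed through the lungs of mice given diesel exhaust particles, ovalbumin, or both: Lcn2, Ltf, Hp, Itih4, Serpina3n and Pigr. They were taken by gene symbol, as the probe sets annotated to exactly 1 of these symbols, and make up 6 of the 12393 genes measured. 7 probe sets carry the 6 symbols. Pigr has 2 of them, the one with the higher mean over all arrays was used, and the other served as a check. Lung RNA was measured in 24 female BALB/C mice aged 8 to 10 weeks, 1 Affymetrix array per mouse and 3 mice in each of 8 groups. The groups were CDEP with ovalbumin, NDEP with ovalbumin, ADEP with ovalbumin, ovalbumin alone (OVA), CDEP, NDEP, ADEP, and saline. CDEP, NDEP and ADEP are the 3 diesel soots that the labels write C-DEP, N-DEP and A-DEP, and the series title calls the samples chemically distinct. Each mouse received its 150 ug of particles, 20 ug of ovalbumin, both, or saline through the nose on days 0 and 13, and lungs were taken 18 hours after the second dose. Groups that received ovalbumin are labelled sensitized and the others are not. Each sample is whole frozen lung, so fewer cells of a type and less RNA per cell cannot be told apart.

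Lipocalin 2 (Lcn2, also called siderocalin or neutrophil gelatinase-associated lipocalin) captures the iron carriers that bacteria secrete, and lactotransferrin (Ltf) binds iron itself. Both are stored in neutrophil granules and are also secreted by epithelium. Haptoglobin (Hp) binds haemoglobin freed from red cells, and Itih4 encodes a plasma glycoprotein related to the heavy chains of the inter-alpha-trypsin inhibitor. Serpina3n is a mouse serine protease inhibitor of the family that includes human antichymotrypsin. Hp, Itih4 and Serpina3n are known as acute phase genes in mouse liver, where interleukin 6 and interleukin 1 raise them through STAT3, C/EBP and NF-kappaB factors. The polymeric immunoglobulin receptor (Pigr) carries dimeric IgA across epithelium into the airway lining fluid.

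Lcn2, Itih4 and Serpina3n rose with each of the 3 particles against saline, so their promoters are shown, as RefSeq sequence of build GRCm38.p6 from 250 bases before to 50 bases after the annotated start. Capitals mark matches on either strand to TTGCNNAA (a C/EBP-type motif), TTCNNNGAA (a STAT-type motif) or TATAAA (the TATA box), and no match overlapped another.
Lcn2 promoter, chr2:32387690-32387989, minus strand: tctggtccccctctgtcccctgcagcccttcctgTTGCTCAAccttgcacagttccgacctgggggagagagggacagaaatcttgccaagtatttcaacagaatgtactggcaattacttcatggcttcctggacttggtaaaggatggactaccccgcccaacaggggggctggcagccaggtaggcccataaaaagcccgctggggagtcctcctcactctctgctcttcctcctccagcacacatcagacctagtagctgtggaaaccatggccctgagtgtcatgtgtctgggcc
Itih4 promoter, chr14:30886226-30886525, plus strand: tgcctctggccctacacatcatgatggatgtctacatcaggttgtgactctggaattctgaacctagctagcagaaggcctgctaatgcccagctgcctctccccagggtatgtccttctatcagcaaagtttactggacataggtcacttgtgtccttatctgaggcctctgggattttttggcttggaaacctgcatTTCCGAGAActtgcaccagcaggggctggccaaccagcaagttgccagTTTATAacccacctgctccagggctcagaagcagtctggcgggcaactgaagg
Serpina3n promoter, chr12:104406458-104406757, plus strand: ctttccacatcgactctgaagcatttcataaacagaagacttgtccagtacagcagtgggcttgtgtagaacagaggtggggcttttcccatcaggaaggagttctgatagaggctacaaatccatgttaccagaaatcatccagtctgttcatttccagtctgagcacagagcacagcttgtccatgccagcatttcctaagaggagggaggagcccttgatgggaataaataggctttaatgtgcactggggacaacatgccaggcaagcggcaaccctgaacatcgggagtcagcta
The Lcn2 window holds TTGCTCAA at bases -216 to -209. The Itih4 window holds TTCCGAGAA at -51 to -43 and, on the other strand, a TATA match at -3 to 2. The Serpina3n window holds none of these letters and none of the 3 holds the NF-kappaB motif searched. Of 32817 mouse promoters of the same length, 10.8% hold the C/EBP-type motif, 8.29% the STAT-type motif, 13.6% the TATA box and 4.50% the NF-kappaB motif. Of the other members with a sequence, Ltf (chromosome 9) has a C/EBP-type match at -75 to -68 and Pigr (chromosome 1) a STAT-type match at 39 to 47.

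Levels below are log2 of the deposited intensity, and a difference of 1 is a doubling. Arrays were even, with medians of 72.2 to 75.5 intensity units. All 6 genes were bright: on every array each lay above at least 65.6% of all genes, and Hp lay above at least 99.3%. Levels of different genes rest on different probe sets and are not set against each other. 1 mouse stood apart for these genes. OVA replicate 2 had the lowest value of all 24 mice for 5 of the 6 genes (Lcn2, Hp, Serpina3n, Ltf and Pigr) and the second lowest for Itih4. Saline replicate 1 was the lowest for Itih4 and the second lowest for Lcn2 and Pigr. Calls against saline or OVA that are lost without 1 of these mice are given with and without it.

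**Figure D1:**
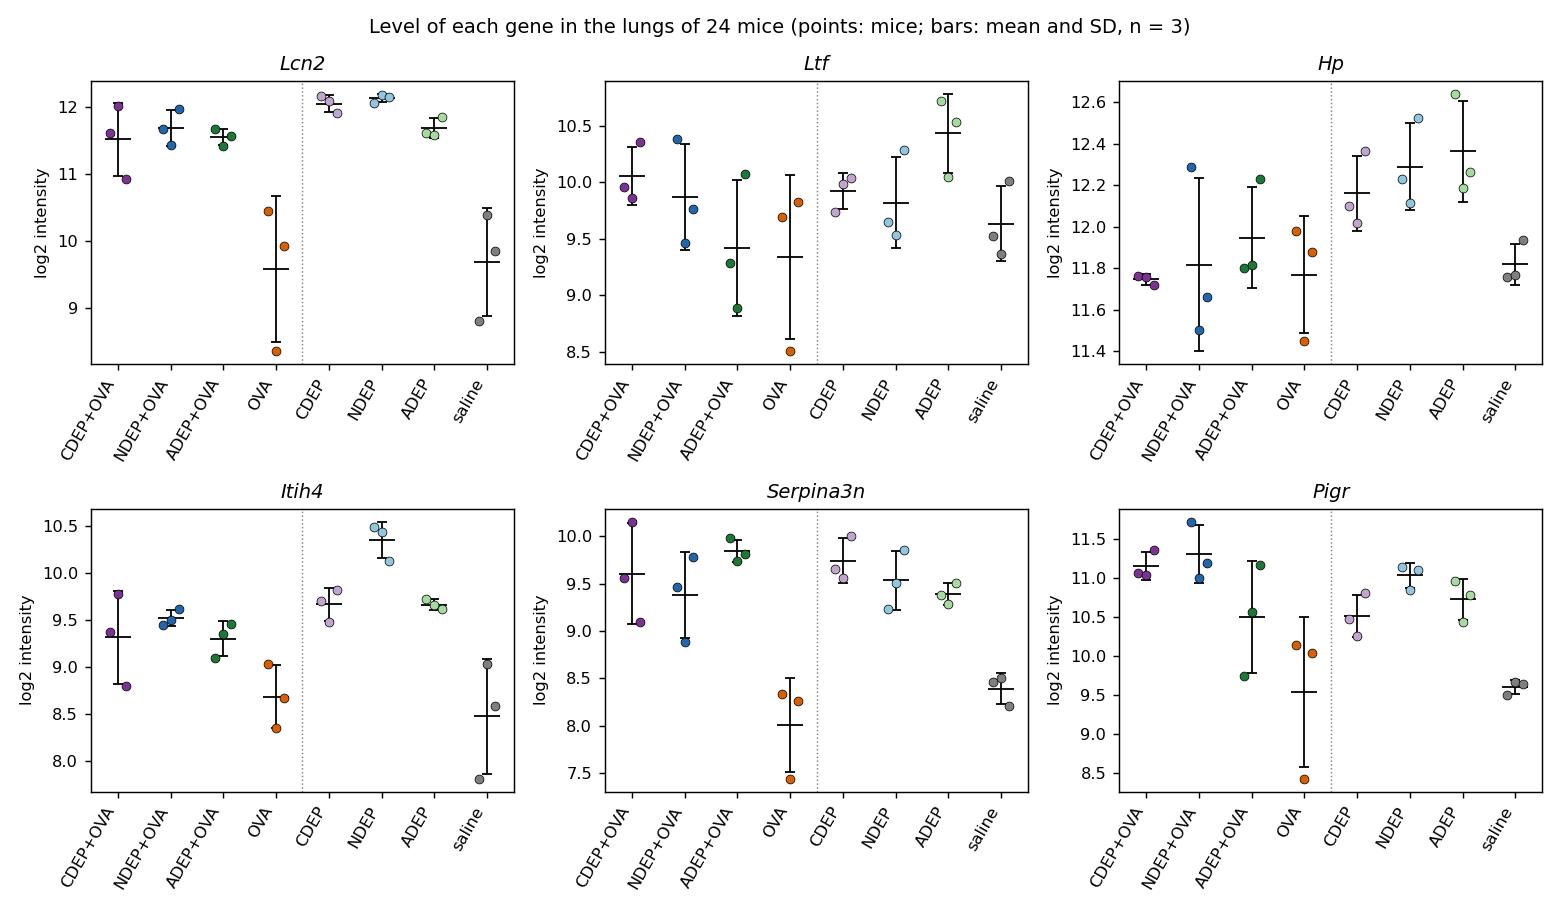
Log2 intensity (vertical axes) of the 6 genes in the 8 groups (horizontal axes), with a point per mouse and bars for the mean and SD (n = 3). Lcn2 lies between 10.93 and 12.19 in the 18 mice given particles and between 8.36 and 10.46 in the 6 mice given OVA or saline, and the lowest OVA point is the same mouse in the panels of Lcn2, Ltf, Hp, Serpina3n and Pigr.

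The first comparison asks what each particle does to these genes without ovalbumin. 3 of the 6 genes rose with CDEP (Lcn2, Itih4 and Serpina3n), 4 with NDEP (the same 3 and Pigr) and 3 with ADEP (Lcn2, Itih4 and Serpina3n), and none fell. A gene counts as risen or fallen at a Benjamini-Hochberg adjusted p under 0.05 in limma, adjusted over all 12393 genes. By the same rule 4.04% of all genes changed with CDEP, 2.70% with NDEP and 1.65% with ADEP, and 2.28%, 2.25% and 1.16% of all genes rose. The median log2 fold change of the 6 genes was 1.05, 1.29 and 1.06 for CDEP, NDEP and ADEP, against -0.02, 0.00 and -0.01 for all genes. The 3 comparisons share their saline mice and are not independent.

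Lcn2, the iron carrier trap, had the largest fold change of the 6. It measured 12.16, 12.10 and 11.91 with CDEP, 12.07, 12.19 and 12.16 with NDEP, and 11.62, 11.59 and 11.86 with ADEP, against 8.81, 10.39 and 9.86 with saline. All 9 particle mice lay above all 3 saline mice, which spread over more than 1.5 log2 units among themselves. The log2 fold change was 2.37 ± 0.36 (SE, adjusted p = 0.000780) for CDEP, 2.45 ± 0.36 (adjusted p = 0.000256) for NDEP and 2.00 ± 0.36 (adjusted p = 0.00694) for ADEP. These are 5.17-, 5.47- and 4.01-fold. Among all 12393 genes it was the 3rd, 4th and 4th largest rise. Without saline replicate 1 the values were 1.93, 2.01 and 1.56, and the ADEP value then had an adjusted p of 0.0648. The ADEP call was also lost without ADEP replicate 3 (1.92, adjusted p = 0.0554).

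Itih4, the plasma glycoprotein, measured 9.70, 9.47 and 9.82 with CDEP, 10.49, 10.43 and 10.12 with NDEP, and 9.72, 9.65 and 9.61 with ADEP, against 7.81, 9.03 and 8.58 with saline. No particle mouse overlapped a saline mouse, and the NDEP mice lay above all CDEP and ADEP mice. It rose by 1.19 ± 0.23 with CDEP (adjusted p = 0.00479), 1.87 ± 0.23 with NDEP (adjusted p = 4.21e-05) and 1.19 ± 0.23 with ADEP (adjusted p = 0.00885). Without saline replicate 1 these became 0.86, 1.54 and 0.86, the ADEP value with an adjusted p of 0.0718. The ADEP call was also lost without ADEP replicate 1 (1.16, adjusted p = 0.0537) or ADEP replicate 3 (1.21, adjusted p = 0.0554).

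Serpina3n, the serine protease inhibitor, measured 9.65, 9.56 and 10.01 with CDEP, 9.23, 9.51 and 9.86 with NDEP, and 9.38, 9.29 and 9.51 with ADEP, against 8.47, 8.51 and 8.20 with saline. The saline mice were close together and lay below all particle mice. The log2 fold changes were 1.35 ± 0.24 (adjusted p = 0.00248), 1.14 ± 0.24 (adjusted p = 0.00794) and 1.00 ± 0.24 (adjusted p = 0.0302) for CDEP, NDEP and ADEP. Without saline replicate 1 the ADEP value was 1.03 and no longer passed (adjusted p = 0.0964), and it did not pass with trended robust variance either (adjusted p = 0.0583). The ADEP call was also lost without saline replicate 3 (adjusted p = 0.0917), ADEP replicate 1 (adjusted p = 0.114) or ADEP replicate 3 (adjusted p = 0.159). The NDEP call was lost without NDEP replicate 3 (adjusted p = 0.0624). The mouse Serpina3 genes are close copies of each other, and whether this probe set also reads its neighbours was not tested.

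Pigr, the IgA transporter, measured 10.47, 10.26 and 10.80 with CDEP, 11.15, 10.85 and 11.11 with NDEP, and 10.96, 10.44 and 10.79 with ADEP, against 9.50, 9.67 and 9.65 with saline. All 9 particle mice lay above the saline mice. The log2 fold change was 1.43 ± 0.32 for NDEP (adjusted p = 0.0129), while 0.91 ± 0.32 for CDEP and 1.12 ± 0.32 for ADEP did not pass (adjusted p = 0.107 and 0.0721). The NDEP call was lost with trended robust variance (adjusted p = 0.0527), without saline replicate 1 (1.38, adjusted p = 0.0636) and without NDEP replicate 3 (1.39, adjusted p = 0.0576). The other Pigr probe set passed with all 3, at 1.12 (adjusted p = 0.0357), 1.42 (adjusted p = 0.0108) and 1.20 (adjusted p = 0.0463). Those p-values were adjusted over 20380 probe sets. The first probe set passed for ADEP with array weights (adjusted p = 0.0241), only the groups compared (adjusted p = 0.00392) and the replicate block (adjusted p = 0.0416). For CDEP it passed with only the groups compared (adjusted p = 0.00466). The missing calls thus depend on the probe set and the setting.

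Hp and Ltf did not pass with any particle. Hp, the haemoglobin binder, measured 12.10, 12.02 and 12.36 with CDEP, 12.23, 12.12 and 12.52 with NDEP, and 12.64, 12.19 and 12.26 with ADEP, against 11.76, 11.76 and 11.93 with saline. The groups did not overlap, yet the differences were small: 0.34 ± 0.17, 0.47 ± 0.17 and 0.54 ± 0.17, with adjusted p-values of 0.277, 0.160 and 0.109. Ltf, the iron binder stored beside lipocalin 2 in neutrophil granules, measured 9.74, 9.98 and 10.04 with CDEP, 9.65, 9.53 and 10.28 with NDEP, and 10.72, 10.04 and 10.53 with ADEP, against 9.53, 9.36 and 10.01 with saline. The CDEP and NDEP mice overlapped the saline mice and the ADEP mice did not. Its log2 fold changes were 0.29 ± 0.30, 0.19 ± 0.30 and 0.80 ± 0.30 (adjusted p = 0.659, 0.841 and 0.188). The 95% interval with NDEP was -0.44 to 0.81, below the fold change of Lcn2 in the same mice.

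The rise in the CDEP mice coincided with a difference in an RNA quality measure. The 3′ minus 5′ difference of the Actb control probe sets was 0.64 to 0.69 in CDEP, against 0.81 to 1.20 in saline, and that of Gapdh was at most 0.123 in CDEP, against 0.125 to 0.679 in saline. With both differences as covariates, a setting chosen after seeing the data, none of the 6 genes passed for CDEP, where only 3 of all 12393 genes did (0.0242%): Lcn2 stood at 1.82 (adjusted p = 0.118), Itih4 at 0.72 (adjusted p = 0.298) and Serpina3n at 1.11 (adjusted p = 0.153). In the same fit 6 of 6 passed for ADEP (2.33% of all genes) and 3 of 6 for NDEP (1.02% of all genes), where Serpina3n fell short at 0.98 (adjusted p = 0.0822). The counts also leaned on single mice, as did those over all genes. For ADEP, 0 of 6 and 14 of all genes passed without saline replicate 1, 0 of 6 and 8 of all genes without ADEP replicate 3, and 1 of 6 and 34 of all genes without ADEP replicate 1. For NDEP, 2 of 6 and 165 of all genes passed without NDEP replicate 3.

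The second comparison asks what the particles do in mice that also received ovalbumin. Against OVA alone 3 of the 6 genes rose with CDEP+OVA and with NDEP+OVA (Lcn2, Serpina3n and Pigr) and 2 with ADEP+OVA (Lcn2 and Serpina3n), and none fell. Of all genes, 4.79%, 2.07% and 0.686% changed and 3.62%, 1.74% and 0.629% rose. The 6 genes had median log2 fold changes of 1.15, 1.10 and 0.79, against -0.01, 0.02 and 0.03 for all genes. The 3 comparisons share the OVA mice.

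Lcn2 measured 11.61, 12.01 and 10.93 with CDEP+OVA, 11.67, 11.44 and 11.98 with NDEP+OVA, and 11.67, 11.42 and 11.58 with ADEP+OVA, against 10.46, 8.36 and 9.93 with OVA. No particle mouse overlapped an OVA mouse. The log2 fold changes were 1.94 ± 0.36 (adjusted p = 0.00167), 2.12 ± 0.36 (adjusted p = 0.00138) and 1.98 ± 0.36 (adjusted p = 0.00632). Without OVA replicate 2 they were 1.33, 1.51 and 1.37, and the ADEP+OVA value no longer passed (adjusted p = 0.0625). It did not pass with only the groups compared either (adjusted p = 0.0622).

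Serpina3n measured 9.56, 10.15 and 9.10 with CDEP+OVA, 9.47, 8.88 and 9.78 with NDEP+OVA, and 9.98, 9.74 and 9.81 with ADEP+OVA, against 8.33, 7.44 and 8.26 with OVA. Again all 9 particle mice lay above the OVA mice, and the ADEP+OVA mice were the closest together. It rose by 1.59 ± 0.24 (adjusted p = 0.000161), 1.36 ± 0.24 (adjusted p = 0.00176) and 1.83 ± 0.24 (adjusted p = 0.000237). Without OVA replicate 2 all 3 still passed, at 1.31, 1.08 and 1.55.

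Pigr measured 11.07, 11.04 and 11.36 with CDEP+OVA, 11.72, 11.01 and 11.20 with NDEP+OVA, and 9.75, 10.57 and 11.17 with ADEP+OVA, against 10.15, 8.43 and 10.04 with OVA. The CDEP+OVA and NDEP+OVA mice lay above all OVA mice, while ADEP+OVA replicate 1 lay among them. It rose by 1.61 ± 0.32 with CDEP+OVA (adjusted p = 0.00302) and by 1.77 ± 0.32 with NDEP+OVA (adjusted p = 0.00237), and was 0.96 ± 0.32 with ADEP+OVA (adjusted p = 0.203). Without OVA replicate 2 the values were 1.06, 1.21 and 0.40, and the first 2 still passed. With only the groups compared the NDEP+OVA value did not pass (adjusted p = 0.0656).

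Itih4 measured 9.37, 9.77 and 8.80 with CDEP+OVA, 9.44, 9.50 and 9.61 with NDEP+OVA, and 9.09, 9.35 and 9.46 with ADEP+OVA, against 9.03, 8.36 and 8.67 with OVA. Only CDEP+OVA replicate 3 overlapped the OVA mice. None of its differences passed: 0.63 ± 0.23 (adjusted p = 0.125), 0.84 ± 0.23 (adjusted p = 0.0523) and 0.62 ± 0.23 (adjusted p = 0.250). These misses depended on the setting. The NDEP+OVA value passed when dim probe sets were left out (adjusted p = 0.0474), with array weights (0.86, adjusted p = 0.00953), with only the groups compared (adjusted p = 0.0381), without OVA replicate 1 (1.01, adjusted p = 0.0290) and with the RNA quality covariates (1.10, adjusted p = 0.00515). The CDEP+OVA value passed with array weights (0.75, adjusted p = 0.0116), without CDEP+OVA replicate 3 (0.89, adjusted p = 0.0209) and with the RNA quality covariates (0.92, adjusted p = 0.0127).

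Hp measured 11.76, 11.76 and 11.72 with CDEP+OVA, 12.29, 11.50 and 11.66 with NDEP+OVA, and 11.80, 11.81 and 12.23 with ADEP+OVA, against 11.98, 11.45 and 11.88 with OVA. All 3 groups overlapped OVA, and the differences were -0.02, 0.05 and 0.18, each ± 0.17. Ltf measured 9.95, 9.86 and 10.35 with CDEP+OVA, 10.38, 9.46 and 9.76 with NDEP+OVA, and 9.28, 8.89 and 10.07 with ADEP+OVA, against 9.69, 8.51 and 9.82 with OVA. The CDEP+OVA mice lay just above the OVA mice, and the differences of 0.71, 0.53 and 0.08, each ± 0.30, did not pass.

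**Figure D2:**
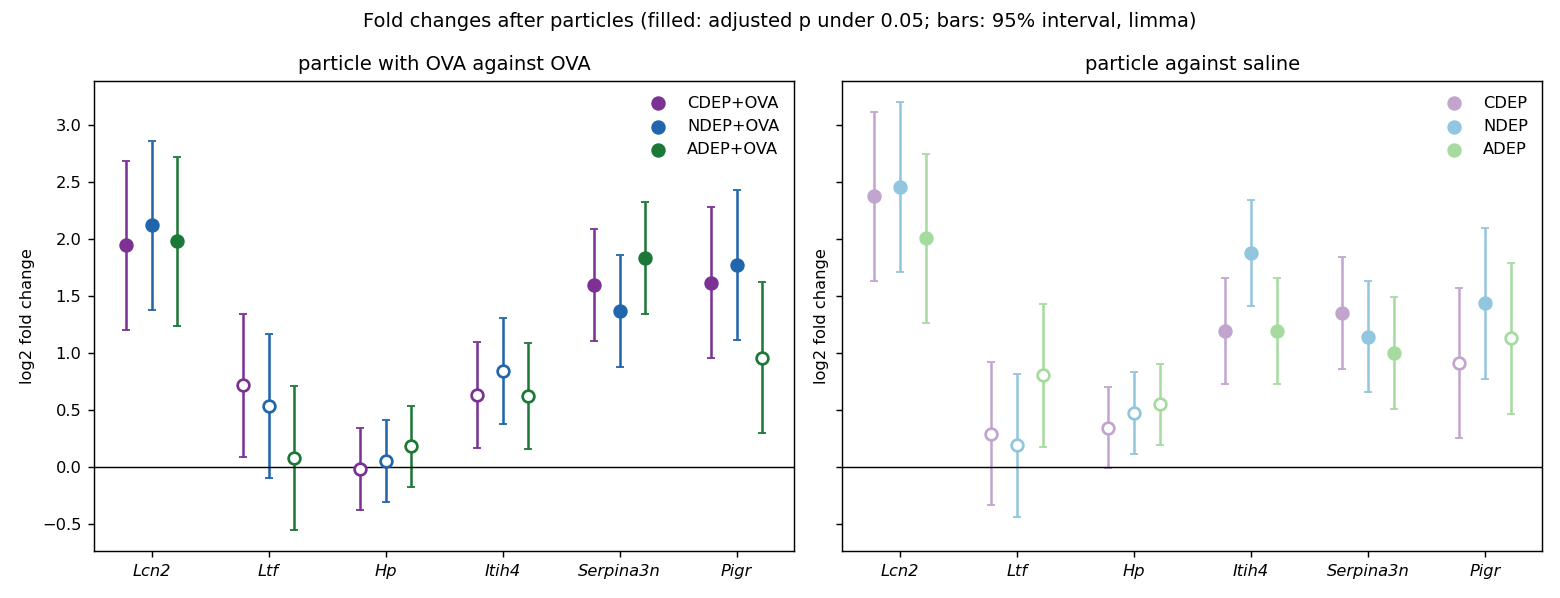
Log2 fold change (vertical axis) of each gene (horizontal axis) for each particle with OVA against OVA (left) and each particle against saline (right), with 95% intervals from limma and filled points where the adjusted p is under 0.05. Lcn2 and Serpina3n are filled in all 6 comparisons, Itih4 only on the right, and Hp and Ltf in none.

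The third comparison asks what ovalbumin does. With limma, 0 of the 6 genes passed for OVA against saline, where 0 of the 12393 genes passed, and 0 of the 6 genes and 818 of all genes had an unadjusted p under 0.05. All 6 genes overlapped between OVA and saline. The log2 fold changes were -0.10 for Lcn2, -0.05 for Hp, 0.21 for Itih4, -0.38 for Serpina3n, -0.29 for Ltf and -0.06 for Pigr. Without OVA replicate 2 they were 0.51, 0.11, 0.37, -0.10, 0.12 and 0.49, none of which passed, so the sign of 4 of them changes without that mouse. Signs also changed for Lcn2 without saline replicate 2 (0.25), Hp without saline replicate 3 (0.0073) and Itih4 without saline replicate 1 (-0.12). The 95% interval for Lcn2 with all mice was -0.85 to 0.64.

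Added to a particle, ovalbumin changed none of the 6 genes past the threshold either, in CDEP+OVA against CDEP (3.58% of all genes passed), NDEP+OVA against NDEP (0.274%) or ADEP+OVA against ADEP (0.0646%). At an unadjusted p under 0.05 the members counted 1, 2 and 2 of 6, and all genes counted 2652, 1195 and 1233. Hp had a negative difference beside each particle, at -0.41 ± 0.17 (adjusted p = 0.167), -0.47 ± 0.17 (adjusted p = 0.336) and -0.42 ± 0.17 (adjusted p = 0.431). Lcn2 and Itih4 had negative differences in all 3 as well. For Lcn2 they were -0.54, -0.44 and -0.13, each ± 0.36. For Itih4 they were -0.35, -0.83 and -0.36, each ± 0.23, and the NDEP+OVA mice lay below all NDEP mice (adjusted p = 0.137). The Actb 3′ minus 5′ difference was 0.85 to 1.23 in CDEP+OVA, against 0.64 to 0.69 in CDEP, and with the RNA quality covariates the differences beside CDEP were 0.03 for Lcn2 and 0.15 for Itih4. Serpina3n differed by -0.14, -0.16 and 0.45, and Pigr by 0.64, 0.27 and -0.23. Ltf was -1.02 ± 0.30 in ADEP+OVA against ADEP (adjusted p = 0.274), with 1 ADEP+OVA mouse inside the ADEP range, and 0.13 and 0.05 in the other two. A score of airway epithelium markers, described below, averaged -0.11 in ADEP+OVA and 0.13 in ADEP. With that score as a covariate, chosen after seeing the data, the Ltf difference was -0.48 (adjusted p = 0.792). With array weights it was -1.29 and passed (adjusted p = 0.0275). The part of airway content in the Ltf difference was not tested.

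Whether a particle acted differently with ovalbumin was tested as an interaction, in which the effect of the particle over saline is taken from its effect over OVA. 0 of the 6 genes passed for CDEP, NDEP or ADEP, where 0.371%, 0.0242% and 0.0242% of all genes passed. At an unadjusted p under 0.05 the members counted 0, 1 and 1, and all genes counted 1575, 764 and 1292. The member at NDEP was Itih4, at -1.04 ± 0.32 (adjusted p = 0.585), whose rise with NDEP was 0.84 beside OVA and 1.87 beside saline. The member at ADEP was Serpina3n, at 0.83 ± 0.34 (adjusted p = 0.388). The rise of Lcn2 differed by -0.43, -0.34 and -0.02 for CDEP, NDEP and ADEP, with intervals as wide as -1.48 to 0.62 for CDEP.

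**Figure D3:**
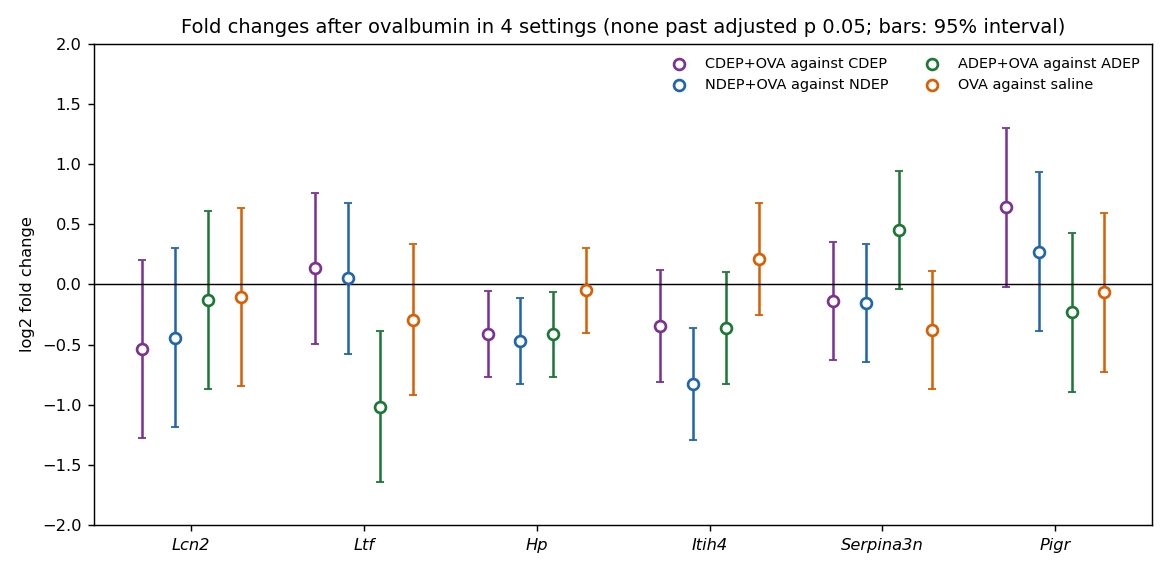
Log2 fold change (vertical axis) of each gene (horizontal axis) for ovalbumin added to CDEP, NDEP, ADEP or saline, with 95% intervals from limma. No comparison passed an adjusted p of 0.05. The 3 Hp points beside particles lie at -0.41, -0.47 and -0.42 and the point for OVA against saline at -0.05.

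The particles were also set against each other, which is where their chemical difference would show. 0 of the 6 genes passed in any of 6 such comparisons with limma. The share of all genes that passed was 0% for CDEP against ADEP and for CDEP against NDEP, 0.00807% for NDEP against ADEP, 1.43% for CDEP+OVA against ADEP+OVA, 0.00807% for CDEP+OVA against NDEP+OVA and 0.0161% for NDEP+OVA against ADEP+OVA. At an unadjusted p under 0.05 the members counted 0, 1, 1, 1, 0 and 1 in that order, and all genes counted 828, 734, 565, 2629, 908 and 1338. Itih4 gave the clearest separation: the CDEP mice lay below all NDEP mice, at -0.68 ± 0.23 (adjusted p = 0.646), and the NDEP mice above all ADEP mice, at 0.69 ± 0.23 (adjusted p = 0.999). Other genes separated by narrower gaps. Lcn2 was higher in NDEP and in CDEP than in ADEP, and Serpina3n higher in CDEP than in ADEP. Pigr was lower in CDEP than in NDEP, Ltf lower in CDEP than in ADEP, and Hp lower in CDEP+OVA than in ADEP+OVA. The share of all genes that separate in this way was not computed. Pigr differed by 0.81 ± 0.32 between NDEP+OVA and ADEP+OVA (adjusted p = 0.344), with overlap. Ltf differed by 0.64 ± 0.30 between CDEP+OVA and ADEP+OVA (adjusted p = 0.228), also with overlap. For Lcn2 the differences ran from -0.18 to 0.45, and the 95% interval for NDEP against ADEP was -0.29 to 1.19. These misses do not show that the soots act alike.

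By mean level the 8 groups fell into a different order for each gene. For Lcn2 it ran NDEP 12.14 ± 0.06, CDEP 12.06 ± 0.13, NDEP+OVA 11.70 ± 0.27, ADEP 11.69 ± 0.15, ADEP+OVA 11.56 ± 0.13, CDEP+OVA 11.52 ± 0.55, saline 9.69 ± 0.81 and OVA 9.58 ± 1.09 (SD, n = 3 each). For Serpina3n it ran ADEP+OVA 9.84 ± 0.12, CDEP 9.74 ± 0.24, CDEP+OVA 9.60 ± 0.53, NDEP 9.53 ± 0.31, ADEP 9.39 ± 0.11, NDEP+OVA 9.38 ± 0.46, saline 8.39 ± 0.16 and OVA 8.01 ± 0.49. In both orders the last particle group and saline were the only neighbours whose mice did not overlap. For Itih4 it ran NDEP 10.35 ± 0.19, CDEP 9.66 ± 0.17, ADEP 9.66 ± 0.06, NDEP+OVA 9.52 ± 0.09, CDEP+OVA 9.31 ± 0.49, ADEP+OVA 9.30 ± 0.19, OVA 8.68 ± 0.34 and saline 8.47 ± 0.61. For Pigr it ran NDEP+OVA 11.31 ± 0.37, CDEP+OVA 11.15 ± 0.18, NDEP 11.04 ± 0.16, ADEP 10.73 ± 0.26, CDEP 10.51 ± 0.27, ADEP+OVA 10.50 ± 0.72, saline 9.60 ± 0.09 and OVA 9.54 ± 0.96. Neighbours without overlap were NDEP and CDEP, and ADEP+OVA and OVA, for Itih4, and ADEP+OVA and saline for Pigr. For Hp, ADEP was highest at 12.36 ± 0.24 and CDEP+OVA lowest at 11.75 ± 0.03. For Ltf, ADEP was highest at 10.43 ± 0.35 and OVA lowest at 9.34 ± 0.73, and all neighbours in these last 2 orders overlapped.

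Relations between the 6 genes were also computed among mice of the same treatment. Each mouse was expressed as its deviation from the mean of its own group, and 27 relations were computed over 24 mice. P-values come from permutation within groups and are two-sided, with adjustment over the 27. Hp and Ltf went together (Pearson r = 0.84, permutation p = 0.000270, adjusted p = 0.00236, and Spearman rho = 0.82, adjusted p = 0.00182). So did Hp and Pigr (r = 0.77, permutation p = 0.000130, adjusted p = 0.00175, and rho = 0.83, adjusted p = 0.00144) and Ltf and Pigr (r = 0.77, permutation p = 0.00732, adjusted p = 0.0220, and rho = 0.72, adjusted p = 0.0130). Without the 2 mice farthest from the median of the first gene, r was 0.81, 0.74 and 0.63. Lcn2 went with Itih4 (r = 0.79, permutation p = 0.00594, adjusted p = 0.0200), but its rank correlation was weaker (rho = 0.51, adjusted p = 0.164), and with Serpina3n (r = 0.64, permutation p = 0.0111, adjusted p = 0.0301, and rho = 0.59, adjusted p = 0.0508). Without the 2 farthest mice those r were 0.73 and 0.67. Lcn2 with Hp (r = 0.32), Ltf (r = 0.35) and Pigr (r = 0.48), and Itih4 with Ltf (r = 0.01), did not pass. Nor did Itih4 with Serpina3n (r = 0.42), Hp (r = 0.20) or Pigr (r = 0.33). Serpina3n with Hp (r = 0.44), Ltf (r = 0.35) and Pigr (r = 0.37) did not pass either. All pairs of members had a positive r, and whether the correlations differ from each other was not tested.

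The same deviations were set against marker levels of cells that can hold these transcripts. An airway score, the mean centred log2 level of 8 club and ciliated cell markers, went with Ltf (r = 0.78, permutation p = 0.000710, adjusted p = 0.00383, and rho = 0.83, adjusted p = 0.00205), Hp (r = 0.69, permutation p = 0.00357, adjusted p = 0.0138, and rho = 0.70, adjusted p = 0.00903) and Pigr (r = 0.69, permutation p = 0.00125, adjusted p = 0.00562, and rho = 0.72, adjusted p = 0.00643). It did not pass with Lcn2 (r = -0.08), Itih4 (r = -0.30) or Serpina3n (r = -0.04). A neutrophil score was formed in the same way from 9 mature neutrophil markers. It went with Lcn2 (r = 0.78, adjusted p = 0.000270, and rho = 0.79, adjusted p = 0.00144) and Serpina3n (r = 0.79, permutation p = 0.000350, adjusted p = 0.00236, and rho = 0.81, adjusted p = 0.00144). The permutation p for Lcn2, 1e-05, is the smallest these permutations can give. Itih4 followed less closely (r = 0.59, permutation p = 0.0172, adjusted p = 0.0422, and rho = 0.45, adjusted p = 0.166), and Hp, Ltf and Pigr did not pass (r = 0.42, 0.42 and 0.34). Without the 2 farthest mice r stayed at 0.56 to 0.74 for the airway score and the first 3 genes, and at 0.77, 0.73 and 0.45 for the neutrophil score with Lcn2, Serpina3n and Itih4. For the neutrophil score with Hp, Ltf and Pigr it was 0.44, 0.30 and 0.31, so Hp was close to Itih4. Whether any of these correlations differ from each other was not tested.

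**Figure D4:**
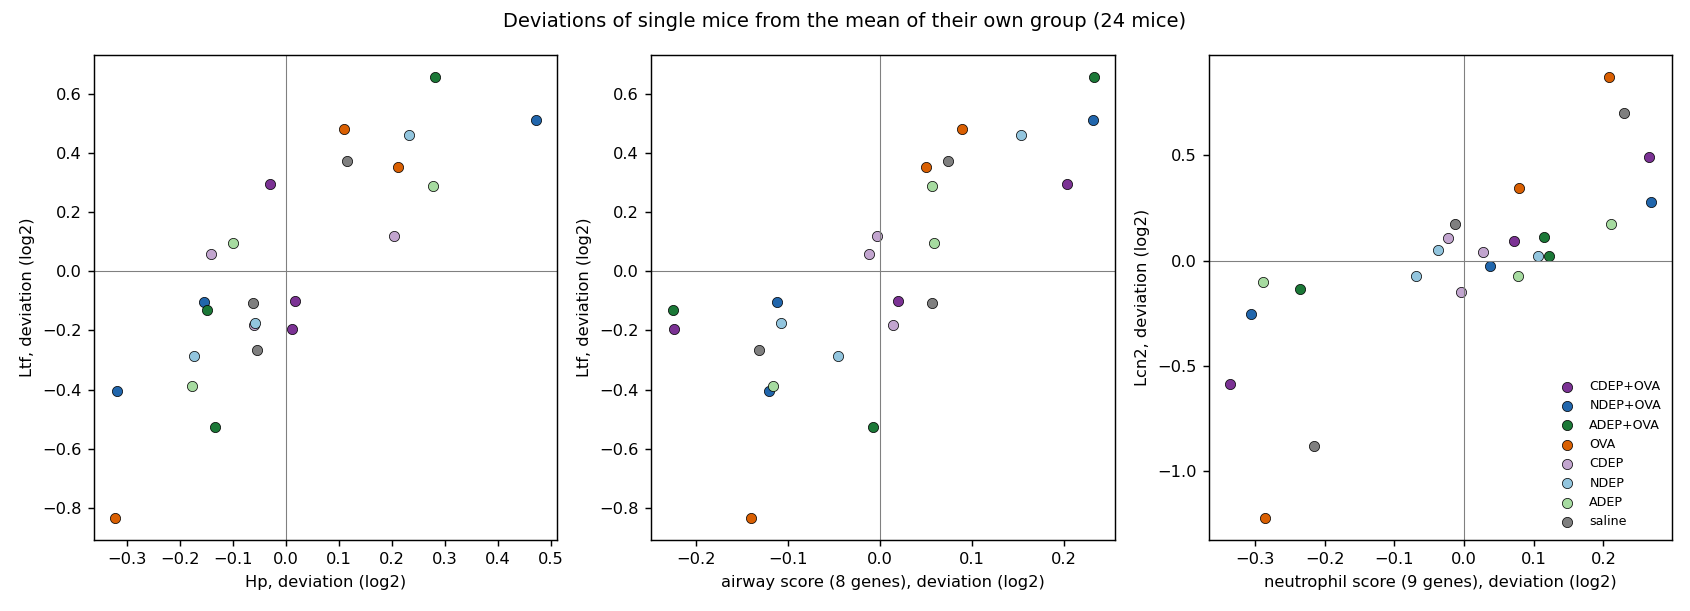
Deviation of each of 24 mice from its own group mean, in log2 units on both axes, coloured by group, for Ltf against Hp (r = 0.84), Ltf against the airway score (r = 0.78) and Lcn2 against the neutrophil score (r = 0.78). OVA replicate 2 is the lowest point on the vertical axis in all 3 panels.

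Between groups the neutrophil markers were higher with particles, while the group means of the airway score ran from -0.11 in ADEP+OVA to 0.13 in ADEP. The summed intensity of the 9 mature neutrophil markers was 1325 to 1906 with CDEP+OVA, 1241 to 2044 with NDEP+OVA, 1119 to 1565 with ADEP+OVA and 680 to 979 with OVA. It was 1568 to 1669 with CDEP, 1790 to 2078 with NDEP, 1232 to 2009 with ADEP and 608 to 888 with saline. 6, 6 and 4 of the 9 rose with CDEP, NDEP and ADEP against saline, and 3 of 9 rose in each comparison with OVA. S100a8, a subunit of calprotectin, an abundant neutrophil protein, rose by 1.21 to 1.43 against saline and did not pass against OVA (0.08 to 0.51). The markers of the specific granule stage, at which Lcn2 and Ltf are made, were divided. The summed intensity of the 6 measured was 1942 to 2381 with CDEP+OVA, 1598 to 2960 with NDEP+OVA and 855 to 975 with ADEP+OVA, against 423 to 505 with OVA. It was 820 to 995 with CDEP, 1046 to 1289 with NDEP and 646 to 802 with ADEP, against 497 to 582 with saline. Of the 6, Cd177, which is also in the mature list, rose in all 6 comparisons (1.93 to 3.55). Over the arrays Cd177 ran from the 16.4th to the 95.1th percentile of genes, so the size of its rise is uncertain. Chil3, a chitinase-like protein that macrophages also make, rose by 2.43 with CDEP+OVA and 2.32 with NDEP+OVA against OVA. It did not pass with ADEP+OVA (0.88), or with CDEP, NDEP or ADEP against saline (0.04, 0.09 and -0.81). Camp, Ngp, Mmp8 and Itgb2l passed in none of the 6, and on every array stood no higher than the 32.6th percentile of genes. The summed intensity of this list, on the linear scale, thus mostly reflects Cd177 and Chil3. Of the 4 markers of the earlier azurophil granule stage, Mpo, Elane, Prtn3 and Ctsg, none passed, and on every array they stood no higher than the 38.6th percentile. Hepatocyte markers were also dim: Apoa1 lay at 4.72 to 5.44 and Ahsg at 4.52 to 5.08, while Alb reached 7.33 in 1 CDEP+OVA mouse. Heart muscle markers summed to 4433 to 5331 with OVA. With CDEP+OVA they summed to 1942 to 2837, with NDEP+OVA to 2471 to 3515 and with ADEP+OVA to 3032 to 3786. Without ovalbumin the sums were 3322 to 4217 with CDEP, 3364 to 5672 with NDEP and 4527 to 6833 with ADEP. The saline sums were 4637 to 8866. The part of neutrophil and heart tissue content in the fold changes of the 6 genes was not tested.

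With the airway score as a covariate, a setting chosen after seeing the data, 5.24%, 3.50% and 1.89% of all genes passed with CDEP, NDEP and ADEP against saline and 6.27%, 2.92% and 0.880% against OVA. Pigr passed in all 6 particle comparisons, including ADEP against saline at 0.93 (adjusted p = 0.0462) and ADEP+OVA against OVA at 1.31 (adjusted p = 0.00858). In that fit Ltf passed with CDEP+OVA at 1.03 (adjusted p = 0.00304) and with NDEP+OVA at 0.74 (adjusted p = 0.0472), and Hp with NDEP at 0.50 (adjusted p = 0.0367). The score is not free of treatment: Scgb3a2, a marker in it, fell with CDEP+OVA against OVA. Of 7 club and secretory cell markers, 3 rose and 2 fell with CDEP+OVA, and 3 rose and 1 fell with NDEP+OVA. None of the 7 changed with ADEP+OVA or with any particle against saline.

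The genes most like each member over the 24 mice are given as a description, since all share the same mice and treatments. For Lcn2 they were Saa3, a serum amyloid A protein made outside the liver (r = 0.97), Chil1, a chitinase-like protein (r = 0.96), and Cxcl1, a neutrophil chemokine (r = 0.96). For Itih4 they were Lrg1, a plasma glycoprotein (r = 0.93), Slpi, the secretory leukocyte protease inhibitor (r = 0.91), and Noxo1, an organiser of NADPH oxidase (r = 0.90). For Serpina3n they were Timp1, an inhibitor of matrix metalloproteinases (r = 0.96), Tmem176a (r = 0.93) and Slc39a14, a zinc and iron importer (r = 0.91). For Pigr they were Cd177, a neutrophil surface protein (r = 0.92), Muc5b, a gel-forming airway mucin (r = 0.91), and Gclc, the catalytic subunit of glutathione synthesis (r = 0.88). For Ltf they were Agr3 (r = 0.87), Drc3 of the ciliary dynein regulatory complex (r = 0.85) and Acox2 (r = 0.84). For Hp they were H2az1, Nupr1 and B9d1, all at r = 0.84.

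Among 22 other plasma acute phase genes, 7 rose with CDEP, 6 with NDEP and 8 with ADEP against saline. Against OVA, 6 rose and 1 fell (Hamp, hepcidin) with CDEP+OVA, 6 rose with NDEP+OVA and 2 with ADEP+OVA. The list's median log2 fold change was 0.17, 0.00 and 0.07 against saline and 0.11, 0.05 and 0.08 against OVA. Orm1, an orosomucoid, rose by 2.87, 3.00 and 3.03 against saline and 2.56, 2.90 and 1.93 against OVA, from means of 4.84 ± 0.08 in saline and 4.30 ± 0.12 in OVA that lie near the 25th percentile of probe sets (4.45 to 4.64 over the arrays). Saa3 rose by 2.92, 2.61 and 2.60 against saline and by 2.20, 2.12 and 2.41 against OVA. Orm2 rose by 1.48, 1.54 and 1.62 against saline, but its mean was at most 5.26 in any group, so the size is uncertain.

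None of 11 inter-alpha-trypsin inhibitor and hyaluronan genes rose in any of the 6 comparisons, and 1 fell, Itih5 with CDEP at -0.86 ± 0.19 (adjusted p = 0.0138). Of 12 listed genes of the Serpina3 cluster and of serine proteases and their inhibitors, 5 were measured. Those not measured were Serpina3c, Serpina3f, Serpina3g, Serpina3h, Serpina3i, Serpina3k and Serpina3m. Slpi, a protease inhibitor outside the Serpina3 cluster, rose with all 3 particles against saline (1.00, 1.10 and 0.82). Gzmb, the granule protease that Serpina3n inhibits in mice, rose only in CDEP+OVA against OVA among the 6 (0.82 ± 0.17, adjusted p = 0.00488).

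Of 13 iron and haem handling genes, 4 rose with each particle against saline and 1 fell with CDEP (Slc40a1, the iron exporter ferroportin). Against OVA, 2 rose and 1 fell with CDEP+OVA, 4 rose with NDEP+OVA and 1 with ADEP+OVA. Hpx, hemopexin, the haem binding partner of haptoglobin in plasma, rose by 1.17, 1.27 and 1.33 against saline, where Hp itself did not pass. Tfrc, the transferrin receptor, rose by 0.81, 0.83 and 0.85 against saline and did not pass against OVA. Hmox1, the haem degrading enzyme, rose by 0.83 with CDEP and 0.82 with NDEP, and was 0.60 with ADEP (adjusted p = 0.0581).

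Of 19 secreted airway antimicrobial genes, 5, 6 and 6 rose with CDEP, NDEP and ADEP against saline. Against OVA 3 rose and 1 fell (Scgb3a2) with CDEP+OVA, 3 rose with NDEP+OVA and 1 with ADEP+OVA. Chil1 rose in all 6 comparisons (0.91 to 1.45), and Sftpd, surfactant protein D, in the 3 against saline (0.84, 0.96 and 0.66). Of 12 genes of immunoglobulin transport and plasma cells, the partners of Pigr, 1, 2 and 1 rose against saline and 0 against OVA. They were Sdc1, a syndecan of epithelium and plasma cells (0.53, 0.49 and 0.50), and, with NDEP, Tnfrsf13b (0.54). B and plasma cell markers summed to 360 to 423 with CDEP+OVA, against 219 to 398 with OVA, and none of 3 passed.

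Of 18 genes listed as inducing cytokines and regulators, 5, 4 and 4 rose against saline and 3, 0 and 1 against OVA. The 3 with CDEP+OVA were Il1b, Il6 and Socs3. Whether the listed genes act on the 6 members in these lungs was not tested. Il1b, interleukin 1 beta, rose by 0.99, 1.14 and 0.96 against saline and by 1.17 with CDEP+OVA and 1.19 with ADEP+OVA, and was 0.76 with NDEP+OVA (adjusted p = 0.136). Nfkbiz, an NF-kappaB cofactor, rose by 0.53, 0.81 and 0.56 against saline, and Stat3 by 0.67, 0.48 and 0.45, and neither passed against OVA (0.16 to 0.37 and 0.08 to 0.15). In OVA against saline no gene of the 7 lists passed.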

How the data were processed

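Lung RNA of 24 mice, 1 array each, was labelled with biotin from 2 ug of total RNA, per the labels' protocols. The deposited values are probe set intensity values that the authors normalized with RMA, per the submitters' processing notes, and no version or setting of it is stated there. RMA puts all arrays on a common scale and can shrink the differences of dim probes. The values ran from 5.98 to 18195.5, a linear scale, so log2 was taken. Of 22690 probe sets, 64 controls, 691 with several symbols and 1555 with none were left out, and the probe set with the highest mean was kept for each of 12393 genes. Depth of sequencing does not apply, and the number of arrays limits the precision.

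limma 3.58.1 in R 4.3.3 fitted 8 group means to all 24 arrays (16 residual degrees of freedom, 8.16 prior). Tests were two-sided, and Benjamini-Hochberg adjustment ran over all 12393 genes within each of 19 comparisons at 0.05. The fit was tested on simulated data. Python 3.11.15 with numpy 2.4.6, pandas 2.3.3, scipy 1.17.1 and matplotlib 3.10.9 did the rest, with 100000 permutations. Alternatives were all probe sets, a filter on dim probe sets (3 or more arrays above their 25th percentile, 10387 genes), quantile normalization again, array weights, trended robust variance, only the groups compared, the replicate number as a block, the other Pigr probe set, and leaving out each array. RNA quality and an airway score as covariates were added after seeing the data. The replicate numbers come from the titles; the residuals of same-numbered mice correlated at 0.19 to 0.27 in OVA against saline, over 0.1 in all 3 pairs, and not in all pairs of any other comparison. No 2 arrays were copies (highest correlation 0.996).

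The members, gene lists and marker lists were chosen with earlier results of these data known. The text names the members, the 3 genes most like each by Pearson r, and from each of 7 lists up to 3 genes that passed in the most of the 7 comparisons with saline or OVA; genes named only because they are the single exception in a count, and S100a8 and the dim markers of hepatocytes, were chosen after their values were seen.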

Additional observations from a re-analysis of the deposited data

How the results depend on the processing

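The counts of members that passed held within 1.5 times under most alternatives, with these exceptions. With the RNA quality covariates the count was 6 for ADEP against saline (289 of all genes) and 0 for CDEP against saline (3 of all genes). With only the groups compared in the fit it was 1 for ADEP+OVA against OVA, for NDEP+OVA against NDEP (Itih4) and for CDEP+OVA against CDEP (Pigr). In these fits 74, 16 and 456 of all genes passed. It was 1 with array weights for ADEP+OVA against ADEP (Ltf, -1.29, where 101 of all genes passed). With the airway covariate it was 1 for CDEP+OVA against CDEP (Pigr, 0.78, where 909 of all genes passed). Leaving out 1 mouse at a time gave counts of 2 to 4 for NDEP and 0 to 3 for ADEP against saline, and 1 to 2 for ADEP+OVA against OVA, where 152 to 407, 8 to 274 and 18 to 97 of all genes passed. The count was 2 without NDEP replicate 3, 0 without saline replicate 1 or ADEP replicate 3, 1 without ADEP replicate 1 and 1 without OVA replicate 2.

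Changes of sign were limited to differences that did not pass. Leaving out 1 mouse at a time gave, for OVA against saline, -0.54 to 0.51 for Lcn2, -0.16 to 0.11 for Hp, -0.12 to 0.49 for Itih4, -0.53 to 0.12 for Ltf and -0.37 to 0.49 for Pigr. It gave -0.044 to 0.37 for Ltf in NDEP against saline, -0.34 to 0.34 for Ltf in ADEP+OVA against OVA, -0.19 to 0.21 for Hp in NDEP+OVA against OVA and -0.18 to 0.084 for Hp in CDEP+OVA against OVA. For ovalbumin beside a particle it gave -0.36 to 0.090 for Serpina3n and -0.20 to 0.28 for Ltf with NDEP, -0.57 to 0.14 for Pigr with ADEP, and -0.41 to 0.12 for Serpina3n and -0.013 to 0.23 for Ltf with CDEP. The Lcn2 interaction ran from -1.04 to 0.0080 for CDEP, -0.95 to 0.10 for NDEP and -0.63 to 0.41 for ADEP.

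The RNA quality covariates gave 0.094 for Hp, -0.057 for Itih4, 0.089 for Ltf and 0.28 for Pigr in OVA against saline, and -0.085 for Hp in NDEP+OVA against OVA. For ovalbumin beside CDEP they gave 0.033 for Lcn2, 0.15 for Itih4, 0.12 for Serpina3n and -0.57 for Ltf, and beside NDEP 0.0064 for Serpina3n, -0.32 for Ltf and -0.075 for Pigr. They gave Lcn2 interactions of 0.44, 0.32 and 0.17 for CDEP, NDEP and ADEP. Array weights gave -0.042 for Hp in NDEP+OVA against OVA, -0.24 for Ltf in ADEP+OVA against OVA, -0.14 for Ltf in NDEP+OVA against NDEP and 0.026 for Serpina3n in CDEP+OVA against CDEP. Quantile normalization gave 0.010 for Hp in CDEP+OVA against OVA and 0.0024 for the Lcn2 interaction of ADEP. The airway covariate gave 0.13 for Hp in CDEP+OVA against OVA and 0.27 for Pigr in ADEP+OVA against ADEP, and the other Pigr probe set 0.17 in OVA against saline.

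With the replicate number as a block, the count for ADEP against saline was 4, where 236 of all genes passed. Pigr then passed at 1.12 (adjusted p = 0.0416), and the block changed no other call of the 6 genes. The cause of these shifts was not tested.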
